A study of Homo sapiens with 6 samples.

Results

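The 10 genes described here form the group of PD-L1 and other immune checkpoint ligands. Apart from the enzyme IDO1, they encode surface or secreted proteins by which a tumor cell can restrain T cells, natural killer cells and macrophages. All 10 were chosen by gene symbol (CD274, PDCD1LG2, CD276, LGALS9, PVR, PVRL2, TNFRSF14, CD47, IDO1 and CEACAM1), with earlier results of these data known. All were found among the 57820 genes of the table. PVRL2 is the older symbol of NECTIN2. RNA was sequenced from M14, a human melanoma cell line that stably carried a doxycycline-inducible shRNA against STAG2. The methods name hygromycin, blasticidin or puromycin for keeping stable populations, and do not say which of them this line received. STAG2 is a core subunit of cohesin, the ring-shaped complex that forms DNA loops. The KD libraries (n = 3) came from cells given doxycycline for 5 days, at 5 µg/ml by the methods, and the WT libraries (n = 3) from the same cells without it. All libraries therefore carried the shRNA vector, and doxycycline without the shRNA is not among the conditions analysed here, so the drug and the knockdown cannot be told apart. The line was kept as a stable population by the methods, and the main test did not pair the libraries. The same-numbered KD and WT libraries were treated as pairs in a fit named below as the replicate block. They were also paired where ratios within pairs are given or both replicate 1 libraries are left out. This pairing is not given by the labels.

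The library totals were 24895998, 35181733 and 29157038 expected counts in WT replicates 1, 2 and 3, and 30143957, 31155103 and 33089945 in KD replicates 1, 2 and 3. Levels are given as CPM, that is, counts relative to the library size after scaling of the libraries by the TMM method. A floor of 3 counts corresponded to between 0.0870 and 0.112 CPM and covers counting error only. Both replicate 1 libraries stood apart from the rest. WT replicate 1 had 5.07% of its counts on mitochondrial genes, against 2.12% to 2.94% in the other 5 libraries. PMEL, which encodes a melanosome protein, was at 3370 CPM in WT replicate 1 and at 662 and 684 CPM in WT replicates 2 and 3. In the KD libraries PMEL was at 1254 CPM in replicate 1 and at 358 and 364 CPM in replicates 2 and 3. Each result on the checkpoint ligand genes is therefore also given without the pair of replicate 1 libraries where its call differed.

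PD-L1 and PD-L2, encoded by CD274 and PDCD1LG2, bind PD-1 on activated T cells and dampen signaling from the T cell receptor. Many tumor cells keep PD-L1 low until interferon reaches them, when STAT and IRF transcription factors bind its promoter. The other ligands act on different receptors: galectin-9 on HAVCR2, CD155 and CD112 on TIGIT and CD226, CD112 also on PVRIG, CD47 on SIRPA of macrophages, and HVEM on BTLA. IDO1 is not a ligand but an enzyme that consumes tryptophan, and it is counted with the checkpoints because tryptophan loss and kynurenine restrain T cells.

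Upon STAG2 knockdown, the transcripts of CD274, LGALS9 and CD276 rose. The means in KD were 10.7-fold, 38.6-fold and 2.36-fold those in WT (n = 3 libraries each). Of the 10 genes, 9 had enough counts to be tested, and these 3 passed an adjusted p under 0.05 in the quasi-likelihood test of edgeR, adjusted by Benjamini and Hochberg's procedure over the 15605 genes tested. None of the 9 was called lower. Over all tested genes, 2.59% were called, 1.75% as higher and 0.839% as lower in KD. PDCD1LG2 was at 0 in WT and passed the filter on low counts through its KD libraries. Of the other 8 tested genes, 7 had every KD library above every WT library, which held for 11.8% of all tested genes (22.3% did not overlap in either direction). The median log2 fold change of these 8 was 1.09. The median over all tested genes was -0.03. With a replicate block, that is, a fit that compares KD with WT within each replicate number, 8 of the 9 were called, 7 higher and 1 (TNFRSF14) lower. The block also called far more genes in all, 9.52% of those tested, 5.1% as higher and 4.42% as lower. Without the pair of replicate 1 libraries and without a block, 5 of the 9 were called, 4 higher and 1 lower, against 4.73% of 15991 tested genes, 2.88% as higher and 1.85% as lower. With 1 library left out, the count of 3 fell to 1 (LGALS9) without KD replicate 2, KD replicate 3 or WT replicate 3. The share of all tested genes called in those fits also fell, to 0.88%, 0.733% and 0.989%.

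**Figure D1:**
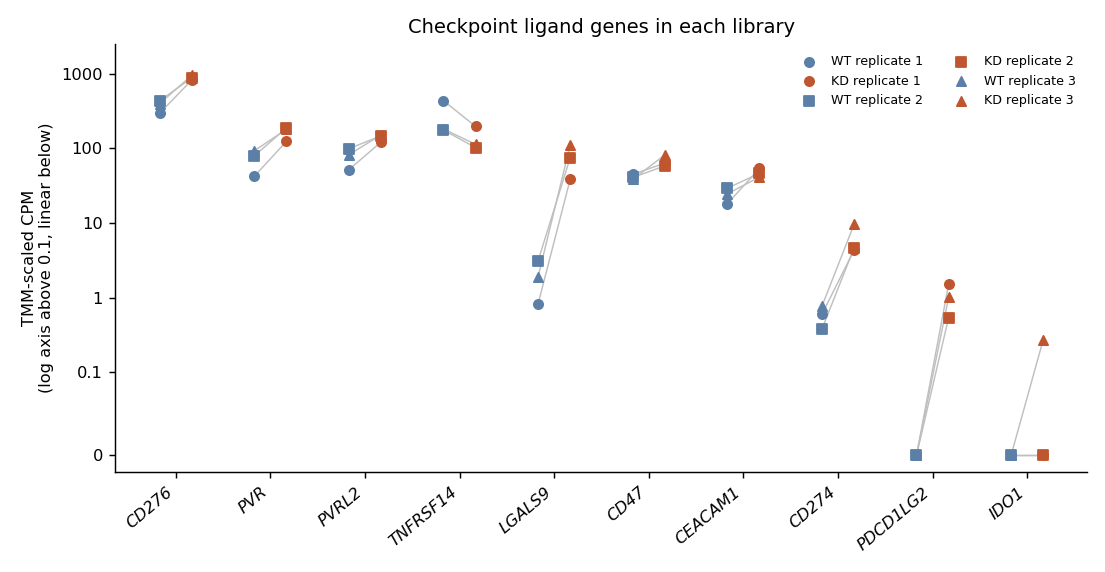
TMM-scaled CPM of the 10 checkpoint ligand genes in each library, on an axis that is logarithmic above 0.1 CPM and linear below it. Blue marks are WT, orange marks are KD, circles, squares and triangles are replicates 1, 2 and 3, and gray lines join the same replicate number. The KD marks lie above all WT marks for every tested gene but TNFRSF14, where each line falls and the groups overlap.

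The knockdown was visible in the libraries. STAG2 was at 66.5, 34.8 and 28.8 CPM in WT replicates 1, 2 and 3, and at 16.0, 7.31 and 6.69 CPM in KD replicates 1, 2 and 3. The KD libraries were all below the WT libraries, and each pair fell by a similar amount, with log2 ratios of -2.06, -2.25 and -2.11. The mean fell from 43.4 ± 20.3 to 9.99 ± 5.18 CPM (SD, n = 3), a log2 fold change of -2.12 (SE 0.43, edgeR adjusted p = 0.0342). Leaving out 1 of WT replicate 2, WT replicate 3, KD replicate 2 or KD replicate 3 took this call past the threshold, with adjusted p of 0.0757, 0.0652, 0.168 and 0.152. With the replicate block the log2 fold change was -2.14 (SE 0.19, adjusted p = 0.000104).

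The labels call the cells melanoma, and all 11 melanoma markers examined were detected. Their summed level was 7394, 3462 and 2879 CPM in WT replicates 1, 2 and 3, and 3523, 3238 and 2484 CPM in the KD libraries. PMEL was the most abundant of them in both replicate 1 libraries, and CSPG4, a surface proteoglycan, in the other 4 libraries. S100B, a calcium-binding protein of melanocytic cells, was the 1 marker called by edgeR without a block, against 0.839% of all tested genes called lower. It fell by 1.35 on the log2 scale (SE 0.21, edgeR adjusted p = 0.00949). That call was lost without KD replicate 2 (adjusted p = 0.0555) or KD replicate 3 (0.0865). With the replicate block 6 of the 11 were called, all lower, against 4.42% of all tested genes called lower. DESeq2 called 2, both lower, against 5.63% of all tested genes called in either direction. Without the pair of replicate 1 libraries and without a block, 5 were called, 4 lower and 1 higher. That fit called 1.85% of all tested genes lower and 2.88% higher.

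Leukocytes, in which checkpoint genes are also transcribed, left little signal. Of 14 leukocyte markers, 6 were at 0 in every library, namely CD3D, CD3E, CD2, CD8A, MS4A1 and TYROBP. PTPRC, which encodes the pan-leukocyte protein CD45, was at 0 in 5 libraries and at 0.582 CPM in WT replicate 3. The 14 summed to 5.89, 11.5 and 7.07 CPM in WT against 16.9, 19.7 and 16.8 CPM in KD replicates 1, 2 and 3. Most of the KD sum was ITGAX, an integrin subunit of dendritic cells and macrophages and the most abundant of the list. ITGAX was at 2.39, 3.24 and 2.45 CPM in WT against 14.8, 13.8 and 11.4 CPM in KD, and it rose by 2.30 on the log2 scale (SE 0.35, edgeR adjusted p = 0.00832). This call was lost without KD replicate 2 (adjusted p = 0.0621) or WT replicate 3 (0.0514). Its part in the results on the checkpoint ligands was not tested. In bulk RNA, fewer cells of a type and less RNA per cell cannot be told apart.

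Markers of other tissues were mostly low, except for a collagen gene. The 5 keratinocyte and epithelial markers, led by KRT14, summed to between 0.372 and 4.70 CPM, and KRT1 was at 0 throughout. The 3 matched endothelial markers, led by VWF, summed to between 1.75 and 5.45 CPM, and TEK was at 0 throughout. The 5 fibroblast markers varied more, at 4.26, 92.1 and 62.5 CPM in WT against 2.40, 22.7 and 18.6 CPM in KD replicates 1, 2 and 3. COL1A1, a collagen chain that melanoma lines can also transcribe, made up most of that sum, at 2.66, 85.1 and 58.1 CPM in WT against 1.40, 19.4 and 17.7 CPM in KD. It was not called in edgeR (adjusted p = 0.462) and was called lower with the replicate block (adjusted p = 0.00232). The part of these markers in the results on the checkpoint ligands was not tested.

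CD274 (ENSG00000120217) encodes PD-L1 and lies at chr9:5450503-5470566 on the plus strand of hg19. The stretch upstream of its start is shown because it holds letters of the interferon response elements, and CD274 is the ligand that the study followed up. It was read from the RefSeq promoter window (250 bases before to 50 after the annotated start, GRCh38.p14) and placed on GRCh37 (hg19) by an exact match at chr9:5450292-5450441, plus strand. Capitals mark first a run of matches to the core of an interferon-stimulated response element (ISRE: GAAA, any 2 bases, GAAA), read on the opposite strand, and then a match to TTCNNNGAA, the core of a gamma-activated site that STAT dimers can bind.
CD274: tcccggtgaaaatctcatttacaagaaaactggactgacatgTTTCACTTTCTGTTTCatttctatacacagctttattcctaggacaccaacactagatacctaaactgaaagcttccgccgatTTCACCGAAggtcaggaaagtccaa

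The first run holds 2 overlapping matches, from -208 to -199 and from -202 to -193 relative to the RefSeq start. The second match runs from -125 to -117. That start lies inside the span given above, downstream of the first base of the gene in GENCODE. The ISRE core, searched on both strands, was found in 1255 of 35116 RefSeq promoter windows (3.57%). TTCNNNGAA, which reads alike on both strands, was found in 2689 of them (7.66%). Among the 10 genes, 8 had a window. The ISRE core was found in 3 of these, CD274, LGALS9 and CEACAM1, and TTCNNNGAA in CD274 alone. The letters are a description of the window, were picked after the expression values had been seen, and were not tied to binding by any measurement used here.

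CD274 was low in WT, at 0.596, 0.377 and 0.765 CPM (16, 13 and 21 counts), and higher in KD, at 4.33, 4.64 and 9.58 CPM (139, 137 and 313 counts) in replicates 1, 2 and 3. The groups did not overlap, and KD replicate 3 was the highest. The mean rose from 0.579 ± 0.194 to 6.18 ± 2.95 CPM (SD, n = 3). The log2 fold change was 3.41 (SE 0.62, edgeR adjusted p = 0.0209), and it was 3.37 (SE 0.58, adjusted p = 0.00558) with the replicate block. Within the pairs the log2 ratio of KD to WT was 2.86, 3.62 and 3.65. The size of the rise held in every alternative run (log2 2.93 to 3.66), but the call did not. The adjusted p was 0.0711 without KD replicate 2, 0.200 without KD replicate 3, 0.0893 without WT replicate 2 and 0.0693 without WT replicate 3, and limma-voom gave 3.38 with an adjusted p of 0.109. Without the pair of replicate 1 libraries the log2 fold change was 3.65 (adjusted p = 0.0248).

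PDCD1LG2 (ENSG00000197646, chr9:5510531-5571282, plus strand) encodes PD-L2, the second ligand of PD-1, and starts 60.03 kb downstream of the start of CD274. It had no count in any WT library. In KD it was at 1.52, 0.541 and 1.01 CPM (49, 16 and 33 counts) in replicates 1, 2 and 3. Every KD library was thus above the floor of 3 counts, and the mean of 1.03 ± 0.492 CPM (SD, n = 3) was at least 9.17-fold higher than the highest floor of a WT library, 0.112 CPM. The edgeR test did not call it (adjusted p = 0.114, and 0.151 with the replicate block). Nor did limma-voom (adjusted p = 0.127) or edgeR with no filter on low counts (0.0718), whereas DESeq2 did (adjusted p = 0.00479). With WT at 0, PDCD1LG2 had counts in its KD libraries alone, so no conclusion is drawn from these tests.

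The balance between the PD-1 ligands could not be compared between the conditions. With PDCD1LG2 at 0 in WT, the ratio of CD274 to PDCD1LG2 there is set by the constant added to each level.

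LGALS9 (ENSG00000168961, chr17:25956824-25976586, plus strand) encodes galectin-9, a secreted sugar-binding protein that can bind HAVCR2 on T cells. Its promoter window held the ISRE core from -9 to 1 relative to the RefSeq start, on the opposite strand. That start lies inside the span given above, downstream of the first base of the gene in GENCODE. The stretch is shown because no other checkpoint ligand rose as far in the edgeR calls, and lies at chr17:25958185-25958214 of GRCh37, plus strand, with the match in capitals. The same 30 bases occur at 1 other place on chromosome 17.
LGALS9: taacagccaagttgctttggTTTCTATTTC

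In WT, LGALS9 was at 0.820, 3.10 and 1.89 CPM in replicates 1, 2 and 3. In KD it was at 38.6, 75.1 and 110.9 CPM. The lowest KD library was far above the highest WT library, and the first replicate was the lowest of each condition. The mean rose from 1.94 ± 1.14 to 74.9 ± 36.1 CPM (SD, n = 3), a log2 fold change of 5.25 (SE 0.55, edgeR adjusted p = 0.00104). The call held in all 15 alternatives, which gave log2 fold changes down to 4.85 and up to 5.78 and an adjusted p of at most 0.0169. The near-identical genes LGALS9B and LGALS9C, to which RSEM could have assigned shared reads, were at 0 in 5 libraries and at 0.220 and 0.134 CPM in KD replicate 2.

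CEACAM1 (ENSG00000079385, chr19:43011456-43065386, minus strand) encodes an adhesion molecule that binds itself on neighboring cells and inhibits T cells and natural killer cells. Its promoter window held the ISRE core on the gene strand from -116 to -107 relative to the RefSeq start, which also lies inside the span given above. The stretch, printed to set it beside that of CD274, lies at chr19:43032704-43032783 of GRCh37 on the minus strand, with the match in capitals.
CEACAM1: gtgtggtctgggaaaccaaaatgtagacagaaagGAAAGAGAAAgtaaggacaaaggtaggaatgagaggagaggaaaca

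CEACAM1 was at 18.1, 29.3 and 24.6 CPM in WT against 53.8, 46.2 and 41.3 CPM in KD replicates 1, 2 and 3. The groups did not overlap, but the mean of 23.96 ± 5.62 CPM in WT against 47.1 ± 6.29 CPM in KD (SD, n = 3) gave a log2 fold change of 0.97 (SE 0.24) that was not called (edgeR adjusted p = 0.0740). The replicate block called it higher (0.99, SE 0.22, adjusted p = 0.0179), as did DESeq2 (0.0185) and edgeR with no filter on low counts (0.00978). Without the pair of replicate 1 libraries the adjusted p was 0.0943, and 0.0416 with the block. The related genes CEACAM3, CEACAM4, CEACAM5, CEACAM7 and CEACAM8 were at 0 in every library, and CEACAM6 was at 0.169 CPM in WT replicate 3 alone. CEACAM19 and CEACAM21, chosen after their values were seen, were low but higher in every KD than in every WT library. CEACAM19 was at 0.112, 0 and 0 CPM in WT against 0.747, 0.813 and 3.74 CPM in KD (edgeR adjusted p = 0.161), and CEACAM21 at 0.0745, 0.174 and 0.109 CPM against 1.31, 1.02 and 0.551 CPM (adjusted p = 0.350). Of the 2 related genes tested, DESeq2 called 1 higher, against 5.63% of all tested genes called in either direction. The antisense gene LIPE-AS1 overlaps CEACAM1 and averaged 36.9 expected counts over the WT and 11.4 over the KD libraries. The libraries were directional, but the strand setting of the counting is not stated, so reads of these overlapping genes may not be fully separated.

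CD276 (ENSG00000103855, chr15:73976307-74006855, plus strand) encodes B7-H3, a B7 family protein found on many solid tumors. It had the highest mean CPM of the 10 genes in both conditions, and TNFRSF14 exceeded it in WT replicate 1 alone. CD276 was at 294.6, 433 and 397 CPM in WT against 824, 880.2 and 951 CPM in KD replicates 1, 2 and 3. The groups lay well apart, with no overlap. The mean rose from 375 ± 71.8 to 885 ± 63.5 CPM (SD, n = 3), a log2 fold change of 1.24 (SE 0.21, edgeR adjusted p = 0.0161), or 1.26 (SE 0.15, adjusted p = 0.000522) with the replicate block. Leaving out KD replicate 2, KD replicate 3 or WT replicate 3 took the adjusted p to 0.0806, 0.120 and 0.0700.

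PVR and PVRL2 encode CD155 and CD112, nectin-like and nectin adhesion proteins that engage the inhibitory receptor TIGIT and the activating receptor CD226. Both lie on the plus strand of chromosome 19, PVR (ENSG00000073008) at 45147098 to 45169430 and PVRL2 (ENSG00000130202) at 45349432 to 45392480. PVR was at 42.1, 79.1 and 92.6 CPM in WT against 124, 187 and 180.1 CPM in KD. PVRL2 was at 51.8, 98.9 and 82.0 CPM in WT against 121, 147 and 151 CPM in KD. For both genes, every KD library lay above every WT library, and the replicate 1 library was the lowest of its condition.

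Neither gene was called in the edgeR fit of all 6 libraries without a block. PVR averaged 71.3 ± 26.1 CPM in WT against 164 ± 34.7 CPM in KD (SD, n = 3), with a log2 fold change of 1.20 (SE 0.30, edgeR adjusted p = 0.0780). The block called PVR higher (1.25, SE 0.16, adjusted p = 0.00116), as did the fit without the pair of replicate 1 libraries (1.11, adjusted p = 0.0103), DESeq2 (adjusted p = 0.00468) and limma-voom (0.0494). PVRL2 averaged 77.6 ± 23.9 CPM in WT against 139.9 ± 16.4 CPM in KD (SD, n = 3), with a log2 fold change of 0.85 (SE 0.25, edgeR adjusted p = 0.133). The block called PVRL2 higher (0.89, SE 0.17, adjusted p = 0.00864), as did DESeq2 (adjusted p = 0.0459), and without the pair of replicate 1 libraries the adjusted p was 0.0524. With no filter on low counts edgeR called both (adjusted p = 2.80e-05 for PVR and 0.00992 for PVRL2). CEACAM19 overlaps PVR on the same strand, and averaged 1 expected count over the WT and 56.8 over the KD libraries.

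CD47 (ENSG00000196776, chr3:107761938-107810709, minus strand) encodes the protein that tells macrophages not to engulf a cell, through SIRPA. It was at 44.8, 40.7 and 38.3 CPM in WT against 63.4, 58.3 and 81.8 CPM in KD replicates 1, 2 and 3. The groups did not overlap, and the WT libraries lay close together. The mean was 41.3 ± 3.29 CPM in WT against 67.8 ± 12.4 CPM in KD (SD, n = 3), with a log2 fold change of 0.72 (SE 0.20) that was not called (edgeR adjusted p = 0.120). The replicate block called it higher (0.70, SE 0.18, adjusted p = 0.0364). Without the pair of replicate 1 libraries the adjusted p was 0.0727, and 0.0321 with the block.

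TNFRSF14 (ENSG00000157873, chr1:2487078-2496821, plus strand) encodes HVEM, a receptor of the TNF family that is also the ligand of the inhibitory receptor BTLA. It was the 1 tested gene of the 10 with a lower mean in KD. It was at 436, 176 and 181 CPM in WT against 197, 102 and 113 CPM in KD replicates 1, 2 and 3. Replicate 1 was the highest in both conditions, KD replicate 1 lay above WT replicates 2 and 3, and KD was below WT in each pair (log2 ratios of -1.15, -0.78 and -0.68). The mean was 265 ± 149 CPM in WT against 138 ± 51.5 CPM in KD (SD, n = 3), with a log2 fold change of -0.94 (SE 0.39, edgeR adjusted p = 0.290). The block called it lower (-0.87, SE 0.15, adjusted p = 0.00567), as did the fit without the pair of replicate 1 libraries (-0.72, adjusted p = 0.0401) and edgeR with no filter on low counts (-0.96, adjusted p = 0.00230). Without WT replicate 1 alone the log2 fold change was -0.39 (adjusted p = 0.519). The antisense gene RP3-395M20.8 overlaps it and averaged 841 expected counts over the WT and 728 over the KD libraries.

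IDO1 (ENSG00000131203) lies on chromosome 8 at 39759794 to 39786309. It had no count in 5 libraries and 9 counts (0.275 CPM) in KD replicate 3, too few to be tested. A count of 0 allows up to 3 counts, so a low level in the other libraries was not detectable at this depth.

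**Figure D2:**
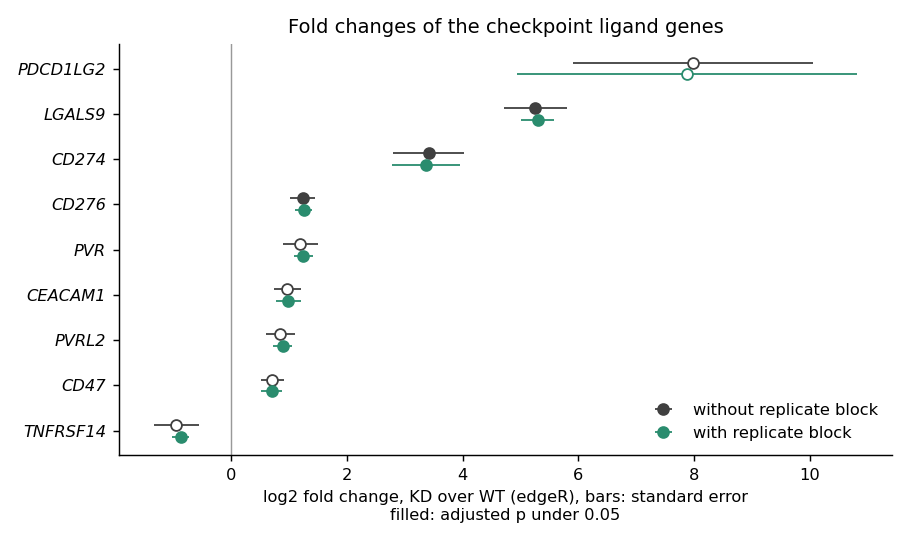
The log2 fold change of KD over WT from edgeR for the 9 tested checkpoint ligand genes, without (gray) and with (green) the replicate block, with bars of 1 standard error and filled points for an adjusted p under 0.05. LGALS9, CD274 and CD276 are filled in both fits, 5 more genes are filled with the block only, and the value of PDCD1LG2 rests on WT libraries that are all at 0 and is not a bound.

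To compare levels between the genes, CPM was divided by the length of the canonical transcript in kb. In WT, TNFRSF14 (155 ± 87.3 CPM per kb, SD, n = 3) and CD276 (114 ± 21.8) stood at the top, with ranges that overlapped. PVRL2 followed at 28.8 ± 8.89 CPM per kb. PVR (12.3 ± 4.51) overlapped CD47 (7.80 ± 0.622), and CD47 overlapped CEACAM1 (6.86 ± 1.61). LGALS9 (1.12 ± 0.663 CPM per kb) and CD274 (0.159 ± 0.0535) were lower and did not overlap their neighbors in the order.

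In KD, CD276 led alone at 269 ± 19.3 CPM per kb, ahead of TNFRSF14 at 80.8 ± 30.2. LGALS9 was at 43.4 ± 21.0 CPM per kb, a level whose range overlapped those of TNFRSF14, PVRL2 (52.0 ± 6.08) and PVR (28.3 ± 5.997). CEACAM1 (13.5 ± 1.80) and CD47 (12.8 ± 2.34) overlapped each other. CD274 remained far down the order, at 1.70 ± 0.811 CPM per kb, above PDCD1LG2 at 0.422 ± 0.202. The share of the summed level per kb of the 10 genes taken by LGALS9 was 0.123%, 0.593% and 0.380% in WT and 4.63%, 9.01% and 12.0% in KD replicates 1, 2 and 3. TNFRSF14 took 66.3%, 34.1% and 36.9% in WT and 23.9%, 12.4% and 12.4% in KD.

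**Figure D3:**
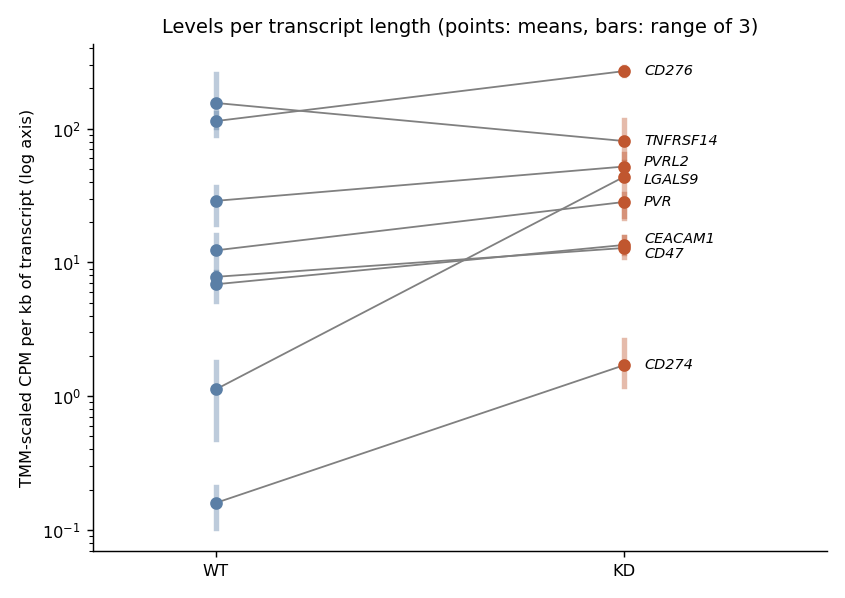
Mean level per kb of canonical transcript (log axis) of the 8 checkpoint ligand genes detected in every library, in WT (blue) and KD (orange), with vertical bars for the range of the 3 libraries. LGALS9 moves from the lower end of the order in WT to overlap TNFRSF14, PVRL2 and PVR in KD, whereas CD274 is the lowest of the 8 in both conditions.

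Other ligands of the checkpoint and costimulatory families were taken from a list of 35 genes, 34 of which matched the table and 21 of which were tested. There, 4 genes rose and none fell, with a median log2 fold change of 0.61 over the 21. All 4 are involved in presenting signals to T cells or natural killer cells. HLA-E, HLA-F and HLA-G are nonclassical class I molecules, and HLA-E engages the inhibitory NKG2A receptor. BTN3A1 is a butyrophilin that activates gamma delta T cells. Over all tested genes, 1.75% were called higher, and the median was -0.03.

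HLA-F rose most among them, from 30.1, 20.2 and 24.4 CPM in WT to 206, 132 and 179.5 CPM in KD replicates 1, 2 and 3 (log2 fold change 2.79, SE 0.25, edgeR adjusted p = 0.000374). HLA-G rose by 2.11 on the log2 scale (SE 0.27, adjusted p = 0.00329), from 7.55 ± 1.52 to 32.5 ± 4.93 CPM (SD, n = 3). HLA-E rose by 1.56 (SE 0.21, adjusted p = 0.00423), from 476 ± 61.6 to 1401 ± 166 CPM. These 3 were called with any 1 library left out, but class I genes resemble each other and share reads, so the split of counts between them is uncertain. BTN3A1 rose by 1.17 (SE 0.24, adjusted p = 0.0348), from 15.6 ± 2.87 to 34.95 ± 3.06 CPM, and was called in 1 of the 6 fits that left out a library, the fit without WT replicate 1 (adjusted p = 0.0233). In the other 5 its adjusted p was between 0.110 and 0.148.

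The most abundant galectins of the list did not follow LGALS9. LGALS1 was at 1516 ± 703 CPM in WT against 1584 ± 404 CPM in KD (log2 fold change 0.06, edgeR adjusted p = 0.969). LGALS3 was at 312 ± 120 CPM in WT against 218 ± 70.4 CPM in KD (-0.52, adjusted p = 0.514). MICA and MICB encode stress ligands of the natural killer receptor NKG2D, and MICA was chosen after its values were seen. They had log2 fold changes of 0.69 and 0.72 (adjusted p = 0.106 and 0.221) and were called higher with the block (0.0320 and 0.0252).

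The partners that these ligands bind, mostly receptors of lymphocytes and also the cytokines TNFSF14 and LTA that bind HVEM, were little transcribed. Of 19, 6 (PDCD1, TIGIT, CD226, BTLA, LTA and CD200R1) were at 0 in every library and 13 stayed under 1 CPM in all libraries. None of the 7 tested partners, all receptors, was called by edgeR without or with the block or by limma-voom, nor was any of the 9 with an adjusted p in DESeq2, and 0 had an unadjusted p under 0.05 in any of these. The same fits called 2.59%, 9.52%, 2.64% and 5.63% of all tested genes, so that a count of 0 among so few genes is near the background. SIRPA, the macrophage receptor of CD47, was the exception in level, at 118 ± 10.4 CPM in WT against 117 ± 0.657 CPM in KD (log2 fold change -0.02, SE 0.17, edgeR adjusted p = 0.978). By the mean over all 6 libraries, SIRPG and ICOS were next in level, and neither exceeded 3.31 CPM in any library.

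**Figure D4:**
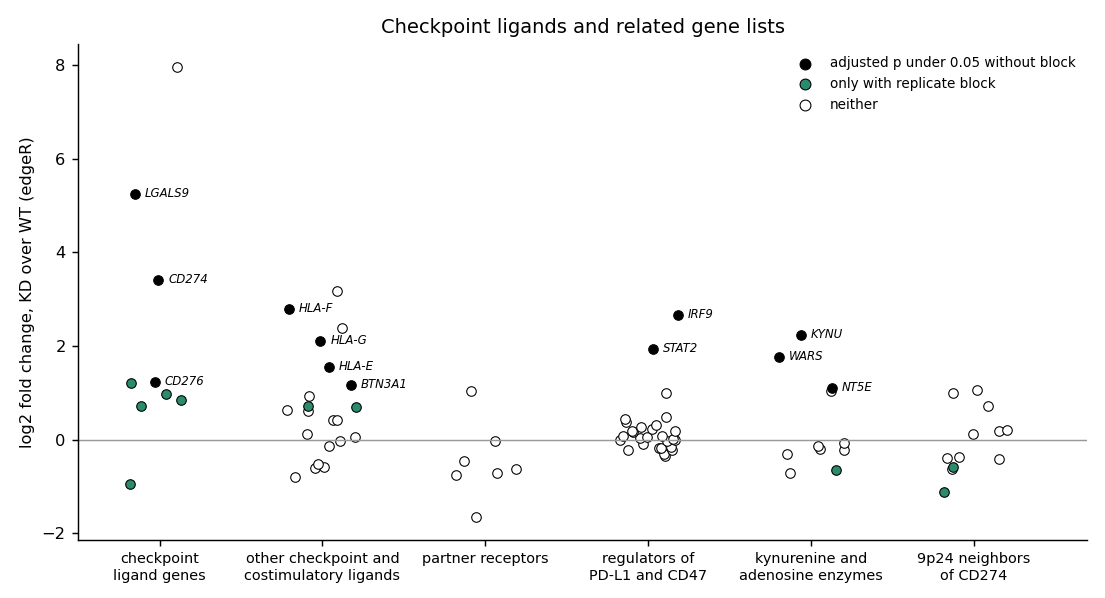
The log2 fold change of KD over WT from edgeR for every tested gene of the checkpoint ligands and of 5 related lists, with black points for an adjusted p under 0.05 without a block, green points for genes called with the replicate block only, and open points for neither. The named black points are the 3 called checkpoint ligands, HLA-E, HLA-F, HLA-G, BTN3A1, STAT2, IRF9, KYNU, WARS and NT5E, and the open point near 8 is PDCD1LG2.

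Among 29 genes known to regulate PD-L1 or CD47, from interferon receptors to the proteins that stabilize PD-L1 at the membrane, 28 were tested. A total of 2 rose and none fell, against 1.75% called higher and 0.839% called lower over all tested genes, and the median log2 fold change of the 28 was 0.06. IRF9 and STAT2, the genes that rose, encode transcription factors of type I interferon signaling. IRF9 was at 19.02, 21.5 and 19.9 CPM in WT against 130.3, 123 and 128 CPM in KD (log2 fold change 2.66, SE 0.18, edgeR adjusted p = 6.49e-05). STAT2 was at 112, 94.4 and 68.1 CPM in WT against 323, 381 and 351 CPM in KD (1.94, SE 0.23, adjusted p = 0.00184). Neither gene overlapped between the groups, and both were called with any 1 library left out. The other abundant genes of the list were not called. STAT3 had a log2 fold change of 0.08 (adjusted p = 0.926), RELA of 0.31 (0.650) and STUB1, a ubiquitin ligase, of -0.19 (0.747).

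IDO1 was almost silent, but other enzymes around it were transcribed. Of 15 genes of tryptophan, kynurenine and adenosine metabolism, 11 were tested, 3 rose and none fell, with a median log2 fold change of -0.13. Over all tested genes, 1.75% were called higher and 0.839% lower. WARS, the tryptophan tRNA synthetase, rose by 1.76 on the log2 scale (SE 0.21, edgeR adjusted p = 0.00183), from 268 ± 42.3 to 909 ± 66.2 CPM (SD, n = 3), and was called with any 1 library left out. KYNU, which cleaves kynurenine, rose by 2.24 (SE 0.42, adjusted p = 0.0252), from 3.64 ± 1.60 to 17.2 ± 5.91 CPM. NT5E, the enzyme CD73 that makes adenosine outside the cell, rose by 1.11 (SE 0.24, adjusted p = 0.0460), from 37.1 ± 10.2 to 80.1 ± 7.39 CPM. Of the 6 fits that left out a library, KYNU and NT5E were called in 1, that without WT replicate 1, and their adjusted p reached 0.110 and 0.197 in the others.

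The 3 genes of that list with the highest mean CPM among those not called had log2 fold changes below 0. QPRT, which acts late in the synthesis of NAD from kynurenine, was at -0.64 (adjusted p = 0.173, and 0.0184 with the block). AHR, the receptor that senses kynurenine, was at -0.70 (0.207, and 0.0732 with the block). AFMID was at -0.31 (0.747).

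CD274 and PDCD1LG2 sit side by side on chromosome 9, and the genes around them were examined for a change of the whole region. Of 17 neighbors in the table, 12 were tested. The log2 fold change was above 0 in 6 of the 12, and the median was -0.13. None of the 12 was called by edgeR without the block, by DESeq2 or by limma-voom, with 1 at an unadjusted p under 0.05 in each. These fits called 2.59%, 5.63% and 2.64% of all tested genes, and 0 of 12 is near that background. The block called 2, both lower, against 4.42% of all tested genes called lower with it. The nearest tested neighbor of CD274, PLGRKT, starts 12.6 kb upstream and had a log2 fold change of -0.62 (edgeR adjusted p = 0.407). MLANA, which encodes a melanocyte antigen and starts 440.4 kb downstream, was at -0.59 (0.796, and 0.0275 with the block). ERMP1, 429 kb downstream, was at -1.11 (0.221, and 0.0294 with the block). GLDC and RCL1, at -0.38 (0.517) and 0.17 (0.856), were the other abundant neighbors. PLGRKT and ERMP1 were chosen after their values were seen.

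**Figure D5:**
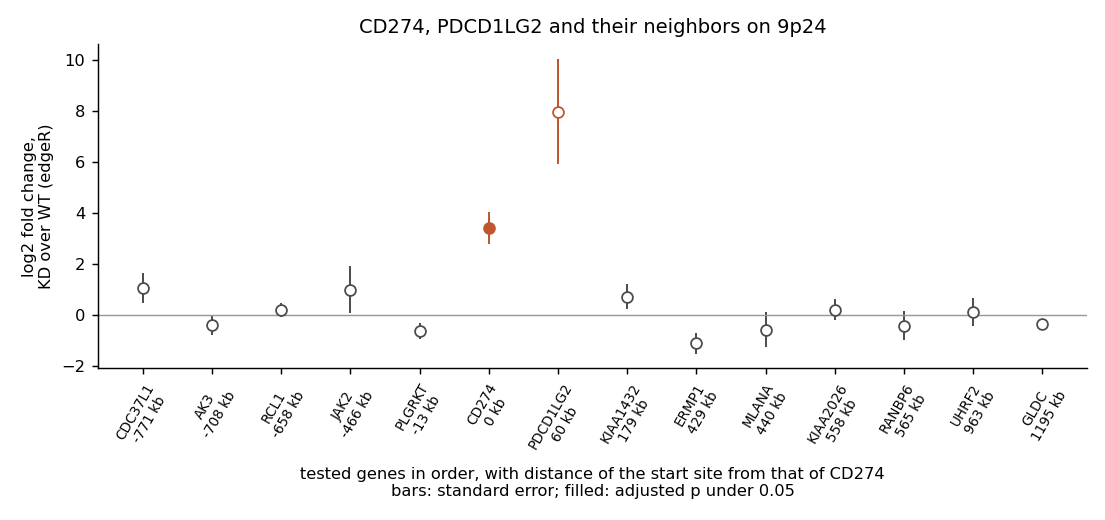
The log2 fold change of KD over WT from edgeR, with bars of 1 standard error, for CD274, PDCD1LG2 (orange) and the 12 tested neighbors (gray) in order of their start sites, with the distance from the start of CD274 in kb under each name. The 12 neighbors lie between -1.11 and 1.06, and CD274 is the 1 filled point, that is, the 1 gene with an adjusted p under 0.05.

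The genes most like CD274 across the 6 libraries were sought among 13535 tested genes with a mean of at least 1 CPM. The measure was the root mean square difference of log2(CPM + 1), centered on its mean over the 6 libraries. The 5 nearest were TREM1 (0.228), DDX60L (0.238), NEFL (0.241), GIMAP6 (0.245) and LMO2 (0.255). TREM1, a receptor of myeloid cells, was at 0 in WT and at 2.30, 3.52 and 4.22 CPM in KD replicates 1, 2 and 3. DDX60L, a helicase related to an antiviral protein, was at 5.66, 3.51 and 6.41 CPM in WT against 23.9, 19.9 and 29.3 CPM in KD. NEFL, a neurofilament subunit, was at 0.596, 0.899 and 1.06 CPM in WT against 3.39, 5.79 and 9.24 CPM in KD. In GIMAP6 and LMO2 the KD libraries were likewise all above the WT libraries, with at most 0.410 and 0.437 CPM in WT and at least 2.52 and 1.93 CPM in KD.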

How the data were processed

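RNA-seq of 3 KD and 3 WT libraries of M14 cells was used. The libraries were directional, from poly(A) RNA, with single reads of 50 bases. The authors deposited unscaled expected counts per gene, which RSEM 1.3.0 estimated from alignments to hg19 by STAR 2.7.0f. The annotation and strand setting are not given in the sources used here. RSEM divides reads between similar genes, and 40.4% of the values above 0, given to 2 decimals, were not whole. Of 57820 genes, 33470 were at 0 in every library. No libraries were identical.

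Expected counts were rounded, filtered with filterByExpr and scaled by TMM. KD was compared with WT in edgeR 4.0.16 (R 4.3.3, quasi-likelihood test, Benjamini-Hochberg adjustment over 15605 genes). SE is the log2 fold change divided by the square root of F. Alternatives were the replicate block, DESeq2 1.42.0, limma-voom (limma 3.58.1), DESeq2 size factors or upper-quartile scaling in edgeR, no filter, at least 10 counts in every library and leaving out each library. Leaving out both replicate 1 libraries was added after seeing the data. Deviations from the group means correlated more strongly between libraries of the same number (r = 0.349, 0.227 and 0.192 over 13535 genes) than between others (-0.245 to 0.0831), so the numbers were taken to pair the libraries, a pairing that rests on the data and not on the labels. The n counts biologically independent samples by the study's legends.

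On simulated data of KD against WT (15605 genes, 200 changed), edgeR called 58% of the changes of log2 2, 6% of those of log2 1 and 3 unchanged genes. DESeq2 called 73%, 23% and 51 unchanged genes.

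The genes and lists were chosen with earlier results of these data known. Named from each list were up to 6 called genes with the largest change and up to 3 more with the highest mean, and the 5 genes most like CD274. Other genes were chosen after their values were seen. Some results are not reported here. Gene positions and transcript lengths came from GENCODE on GRCh37, and promoters from RefSeq.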

Additional observations from a re-analysis of the deposited data

How the results depend on the processing

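Over 18 results, 264 values were recomputed under the alternatives; 201 kept their direction and their side of the threshold or, as counts, stayed within 1.5 times, 12 lost a call, 22 gained it, 26 moved as values or counts, and 3, all of the ratio described below, changed sign. The count of called genes, 404 of 15605 tested, became 1486 of 15605 with the replicate block and 991 of 17599 with DESeq2. It became 1103 of 24277 with no filter on low counts, 757 of 15991 without both replicate 1 libraries and 1441 of 15991 without them and with the block. With 1 library left out it ranged from 121 of 16515 to 531 of 16509. The checkpoint ligand genes called, 3, became 8 with the replicate block, 7 with DESeq2, 7 with no filter, 5 without both replicate 1 libraries and 8 without them and with the block, and ranged from 1 to 3 with 1 library left out. LGALS9 was called in all of these fits. The 7 of DESeq2 include PDCD1LG2, which was at 0 in every WT library, so no conclusion is drawn from its call. The block changed no call of the 10 genes other than PVR, PVRL2, TNFRSF14, CD47 and CEACAM1. Of the 11 tested kynurenine and adenosine genes, 1 to 3 were called with 1 library left out. Of the neighbors of CD274, 2 of 12 were called with the block and 1 of 13 with no filter. Without both replicate 1 libraries and with the block it was 1 of 12. Beside the counts over all tested genes given above, no result about the neighbors is drawn from calls this few. The log2 fold change of CD274 was 3.38 in limma-voom and 2.93 to 3.66 with 1 library left out, and that of STAG2 was -2.63 to -1.68. The log2 ratio of CD274 to PDCD1LG2 has no direction that can be read, since PDCD1LG2 was at 0 in WT and the added constant sets the WT ratio; its difference between KD and WT was -0.24 with 0.1 CPM added, 1.13 with 1 CPM added, 0.32 without both replicate 1 libraries and -0.56 to 0.28 with 1 library left out. Where calls were lost with a library left out, fewer samples were fitted; the other causes were not tested. No scaling moved the median of all genes by more than 0.05 (log2).

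Depth limits the low genes. WT held 13 to 21 counts of CD274 and none of PDCD1LG2, and IDO1 rested on 9 counts of 1 library. With 3 libraries per condition, edgeR called 6% of the changes of log2 1 in simulation. The genes changed there were drawn at random from all tested genes, with no replicate effect. That share is therefore an average and does not describe any particular gene. A missed call of CEACAM1, PVR, PVRL2, CD47 or TNFRSF14 without the block does not by itself show that the levels were equal. With the block, each of these genes was called from the same libraries, in a fit that called 9.52% of all tested genes.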

Other observations

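The values of 2 more regulators of PD-L1, picked after their values were seen, are given here. IRF1, a transcription factor induced by interferon gamma, was at 16.9, 77.4 and 65.4 CPM in WT replicates 1, 2 and 3 and at 37.9, 72.2 and 68.1 CPM in KD, so that the groups overlapped (log2 fold change 0.16, edgeR adjusted p = 0.933). JAK2, the kinase that starts 466 kb upstream of CD274, was at 4.58, 0.290 and 0.801 CPM in WT and at 5.13, 2.23 and 3.86 CPM in KD, with overlapping groups (log2 fold change 0.99, SE 0.92, adjusted p = 0.728). With the replicate block it was 1.77 (SE 0.77, adjusted p = 0.200), from log2 ratios of 0.16, 2.94 and 2.27 within the pairs.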
